A study of Mus musculus with 18 samples.

Results

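The Hsd3b steroid dehydrogenase family was followed through 18 mouse liver libraries. Its members are Hsd3b1, Hsd3b2, Hsd3b3, Hsd3b5 and Hsd3b6, chosen by gene name from the deposited table, so that 5 of its 58126 genes are described here. The family was proposed after Hsd3b5 had been seen to differ between untreated knockout and untreated wild-type liver. Every comparison that holds an untreated library is therefore a description of the members, and tests are given only among the libraries of treated mice. The animals were C57BL/6 mice, either with a liver-specific knockout of Ftcd (LKO), which encodes a liver enzyme that joins histidine breakdown to the folate pool, or wild-type littermates (WT). The promoter that drove the deletion is not named in the labels. Untreated liver was collected at 12 months of age from WT (n = 3) and LKO (n = 3) mice. Other WT (n = 6) and LKO mice received 20 mg/kg of the liver carcinogen diethylnitrosamine (DEN) into the peritoneum on postnatal day 14, and were sampled 12 months later. From the treated LKO mice, nontumourous liver (n = 3) and tumours (n = 3) were sequenced, while the treated WT libraries are all of nontumourous liver. The labels do not say whether each library came from its own animal, so every p-value measures only the spread between these libraries, which may be technical.

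The enzymes of this family are known for oxidizing the hydroxyl group at carbon 3 of steroids such as pregnenolone and dehydroepiandrosterone, and for moving the neighbouring double bond, which yields progesterone and androstenedione. In mice, Hsd3b1 does this in the adrenal gland and gonads, and Hsd3b6 in a zone of the adrenal cortex and in placenta. Hsd3b2 and Hsd3b3 are known from liver and kidney, and Hsd3b5 is a liver form that works in the other direction, reducing ketosteroids such as dihydrotestosterone. Adult liver of male mice is known to carry far more Hsd3b5 than that of females, under the pulsatile growth hormone pattern of males.

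Several features of the libraries touch the results below. All 6 hepatocyte markers were present, with summed levels of 16785 to 92825 TPM, a scale of transcript abundance that is adjusted for gene length and has the same total, 1000000, in each library. By Xist and Y-linked transcripts, 11 libraries were XX and 7 were XY. The 9 libraries labelled WT were all XX, as were replicate 1 of DEN LKO nontumour liver and replicate 1 of the tumours. The 3 untreated LKO libraries and replicates 2 and 3 of both treated LKO groups were XY. Genotype and sex chromosomes thus cannot be told apart in the untreated comparison. Ftcd was at 0.1 to 3.16 TPM in the 9 LKO libraries and at 61.17 to 106.1 TPM in 6 of the 9 libraries labelled WT. It was at 1.77 to 2.5 TPM in the other 3 (untreated WT 3, DEN WT 1 and DEN WT 2), which go against their label. Mitochondrially encoded transcripts made up 4.24% to 38.82% of TPM. Adrenal cortex markers were low apart from Akr1b7, which reached 10.06 TPM. Cyp11b2 was listed at 0 in every library, and Cyp11a1 and Star reached at most 0.18 and 0.75 TPM.

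The members lie side by side on the minus strand of mouse chromosome 3 within 241.2 kb (mm10, chr3:98618634-98859794). In the GENCODE annotation, Hsd3b5 takes up chr3:98618634-98630252, Hsd3b2 chr3:98709255-98724543 and Hsd3b3 chr3:98741523-98763127. Hsd3b6 (chr3:98805504-98814443) and Hsd3b1 (chr3:98852194-98859794) follow. All 5 are protein-coding genes. The Zfp697 gene is annotated on the opposite strand over chr3:98382461-98753812, which covers all of Hsd3b5 and Hsd3b2 and part of Hsd3b3. Whether the authors' counting used strand is not given in the sources used here, so reads of these genes and of Zfp697 may not be told apart. Zfp697 itself was low, with group means of 0.65 to 3.10 TPM.

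The windows around the start sites of the 3 members with the highest levels are printed because Hsd3b5 and Hsd3b3 resemble each other there, while their transcripts were distributed differently over the libraries. Each sequence runs 5′ to 3′ on the minus strand from 250 bases before to 50 bases after the RefSeq start site (GRCm38.p6). Capitals mark aligned runs of at least 10 identical bases, shared with Hsd3b3 in the Hsd3b5 window and shared with Hsd3b5 in the other windows.
Hsd3b5 (chr3:98645485-98645784): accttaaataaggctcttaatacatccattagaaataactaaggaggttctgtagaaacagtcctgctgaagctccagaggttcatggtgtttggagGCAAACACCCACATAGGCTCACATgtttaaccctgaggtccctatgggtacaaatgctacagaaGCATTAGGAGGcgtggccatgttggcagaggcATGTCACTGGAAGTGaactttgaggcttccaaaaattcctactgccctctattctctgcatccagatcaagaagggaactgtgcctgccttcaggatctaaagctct
Hsd3b3 (chr3:98762361-98762660): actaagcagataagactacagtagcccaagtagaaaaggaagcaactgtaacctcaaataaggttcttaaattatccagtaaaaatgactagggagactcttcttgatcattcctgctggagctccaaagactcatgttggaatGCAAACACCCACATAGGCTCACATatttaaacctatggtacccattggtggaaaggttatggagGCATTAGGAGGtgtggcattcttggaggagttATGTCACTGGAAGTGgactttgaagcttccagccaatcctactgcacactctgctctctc
Hsd3b2 (chr3:98724494-98724793): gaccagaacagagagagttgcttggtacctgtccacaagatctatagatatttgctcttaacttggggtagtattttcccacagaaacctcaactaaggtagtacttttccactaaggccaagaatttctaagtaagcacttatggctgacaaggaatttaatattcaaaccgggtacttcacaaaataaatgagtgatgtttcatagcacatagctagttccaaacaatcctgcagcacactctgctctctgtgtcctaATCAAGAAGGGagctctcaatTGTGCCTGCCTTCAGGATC

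The Hsd3b5 and Hsd3b3 windows were identical at 193 of 250 aligned bases (77.2%), with 3 shared runs of which the longest held 24 bases. Hsd3b5 and Hsd3b2 were identical at 69.0% of aligned bases, and their 2 shared runs both lie after the start site. Hsd3b2 and Hsd3b3 shared 62.9%. RefSeq places the start of Hsd3b5 15282 bases upstream of the GENCODE gene start, so the printed Hsd3b5 window lies outside the GENCODE gene. RefSeq also lists a second Hsd3b3 start, whose window was 99.3% identical in the aligned bases.

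All 5 members had a window in the RefSeq table. Both strands were searched for the letters TTCNNNGAA, the pattern bound by STAT5 and BCL6, which transmit and counter the growth hormone signal in liver. It was in 8.33% of 32544 promoter windows, and among the members only Hsd3b1 held it, as TTCTCAGAA starting 122 bases before the start site. The windows of Hsd3b5, Hsd3b2 and Hsd3b3 had no match. The letters CAAAGTCCA, a form of the site of the hepatocyte factor HNF4, were in 0.48% of all windows. Among the members they were found in both Hsd3b3 windows, on the reverse strand as TGGACTTTG, starting at base 4 or 5 after the start site. No member held the FOXA letters TGTTTAC (3.66% of windows) or the TATA box letters TATAAA (13.57% of windows).

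Sequence shared between the transcripts bears on how well reads can be assigned. Of the 50-base stretches of the Hsd3b5 transcript, 18.7% also occur in another gene of the cluster, 18.2% in Hsd3b4 and none in Hsd3b2 or Hsd3b3. Hsd3b4, a close relative of Hsd3b5 in the same cluster, was listed at 0 to 0.09 TPM. For Hsd3b2 the share was 11.9%, of which most lay in Hsd3b3 (11%), and for Hsd3b3 it was 6.6%. Hsd3b6 shared 15.5%, with 13.2% in Hsd3b2 and 12.2% in Hsd3b3, and Hsd3b1 shared 2.2%.

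Hsd3b5, the ketosteroid reductase of male liver, was the member with the widest range. Untreated WT livers held 0.11, 0.05 and 0.39 TPM, and untreated LKO livers held 51.53, 30.75 and 47.48 TPM. The 6 DEN WT livers ran from 0.11 to 1.42 TPM with a median of 0.26 TPM. DEN LKO nontumour livers held 0.71, 29.37 and 0.11 TPM, and DEN LKO tumours held 0.85, 0.32 and 0.10 TPM. Only 4 of the 18 libraries were above 29 TPM: the 3 untreated LKO livers and replicate 2 of DEN LKO nontumour liver. The other 14 did not exceed 1.42 TPM.

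By group, mean Hsd3b5 was 43.25 ± 11.02 TPM in untreated LKO liver (SD, n = 3), then 10.06 ± 16.72 in DEN LKO nontumour liver (n = 3), 0.43 ± 0.50 in DEN WT liver (n = 6), 0.42 ± 0.39 in DEN LKO tumours (n = 3) and 0.18 ± 0.18 TPM in untreated WT liver (n = 3). Only the first step in this order was larger than the SD of both groups with no overlap between libraries. The remaining neighbours overlapped and differed by less than the larger SD. In bulk tissue, fewer cells of a type and less RNA per cell cannot be told apart.

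**Figure D1:**
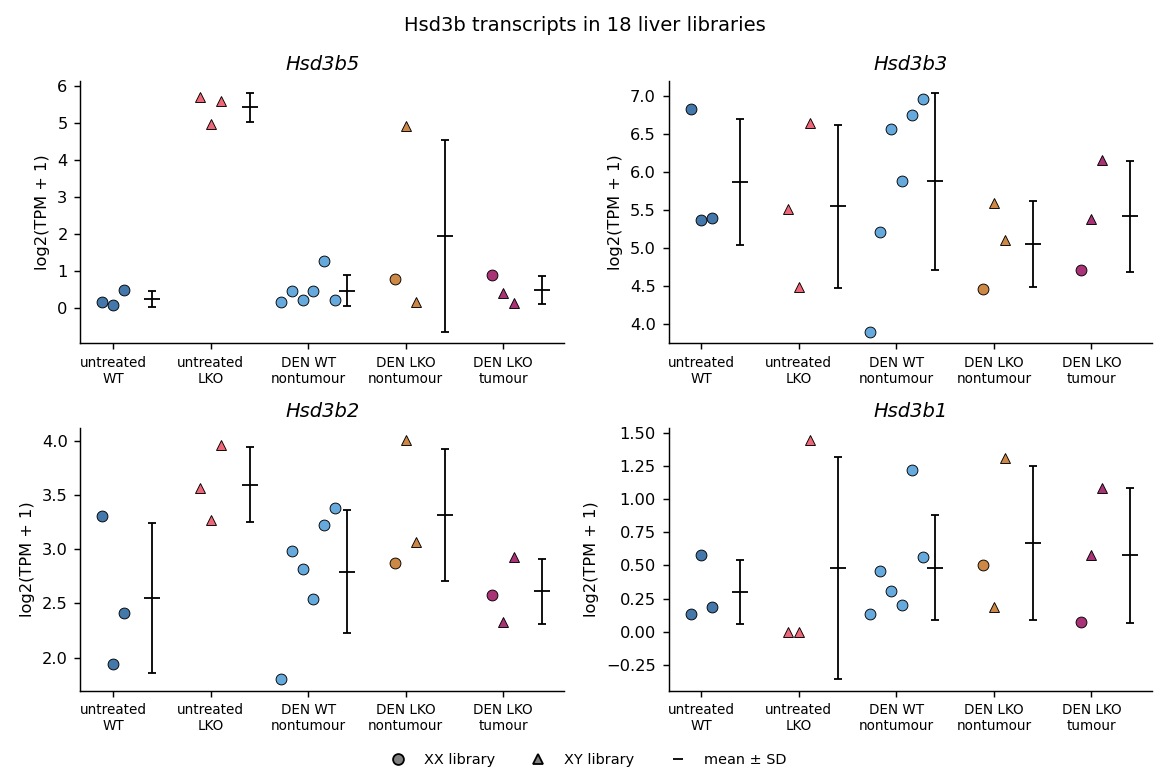
Levels of the 4 detected Hsd3b members, as log2(TPM + 1) on the vertical axis, in the 5 groups on the horizontal axis. Circles are XX libraries, triangles are XY libraries, and the bars beside them give the group mean and SD of the log values. Hsd3b5 is high in the 3 untreated LKO libraries and in 1 DEN LKO nontumour library, while the groups overlap for Hsd3b3 and Hsd3b1. For Hsd3b2 they overlap except for untreated LKO liver, which lies above DEN LKO tumours.

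Set against the sex chromosomes, Hsd3b5 was at 0.05 to 1.42 TPM in all 11 XX libraries. It was at 30.75 to 51.53 TPM in the 3 untreated XY libraries, all of them LKO. Of the 4 XY libraries of treated mice, replicate 2 of DEN LKO nontumour liver held 29.37 TPM, whereas replicate 3 of that tissue and tumours 2 and 3 held 0.11, 0.32 and 0.10 TPM. An XY library of a treated mouse could thus be as low in Hsd3b5 as an XX library. No WT library was XY, so the level in XY liver with intact Ftcd was not measured.

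Among 13872 genes tested, the 5 whose log2(TPM + 1) followed Hsd3b5 best over the 18 libraries were Slco1a1 (r = 0.971), Alas2 (0.965), Gtpbp4-ps1 (0.954), Slc22a28 (0.946) and Mup-ps5 (0.943). Slco1a1 is an organic anion transporter known to be higher in male liver, and Alas2 starts haem synthesis in developing red cells. These genes were ranked on the same libraries, which fall into few high and many low values, so the coefficients are a description. Slco1a1 was at 21.07, 15.29 and 35.05 TPM in untreated LKO liver and at 19.60 TPM in DEN LKO nontumour 2, against 2.78 TPM at most elsewhere. Alas2 was at 164.16, 94.93 and 124.03 TPM in untreated LKO liver and at 92.85 TPM in DEN LKO nontumour 2, against 20.91 TPM at most elsewhere. The same 4 libraries were high for both.

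Other genes known to differ by sex in mouse liver did not all share this distribution. Of 15 male-biased genes, Hsd3b5 not counted, 14 had untreated LKO libraries that did not overlap untreated WT, against 11.4% of all genes tested. This contrast is the one that led to the family and shares its sex difference, and nothing is read from the count. DEN LKO nontumour 2 reached the untreated LKO range for 9 of the 14, DEN LKO nontumour 3 for 2, tumour 2 for 4 and tumour 3 for 5. The 2 XX libraries of treated LKO mice reached it for none.

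Cyp4a12a, a fatty acid hydroxylase of male liver, followed Hsd3b5, with 148.04, 105.98 and 161.31 TPM in untreated LKO liver, 69.17 TPM in DEN LKO nontumour 2, and 2.21, 3.88 and 10.71 TPM in the other XY libraries of treated mice. Mup20, a major urinary protein gene of males, did not: tumours 2 and 3 held 15461.77 and 6862.24 TPM, above the 1799.11 to 4548.28 TPM of untreated LKO liver, while their Hsd3b5 was at 0.32 and 0.10 TPM. Of 18 female-biased genes, DEN LKO nontumour 2 had 5 in the low untreated LKO range and 2 in the untreated WT range, and the others lay between. The counts were 5 and 1 in DEN LKO nontumour 3, 13 and 2 in tumour 2, and 3 and 2 in tumour 3. All 18 genes had untreated LKO libraries that did not overlap untreated WT, against 11.4% of all genes tested. Shares of all genes tested within these ranges were not computed, here or for the male-biased genes, and nothing is read from the counts. Cyp2a4, a hydroxylase of female liver, was 1 of the 2 in the WT range in DEN LKO nontumour 2, at 743.40 TPM. Cyp3a41a and Cyp2b13, further cytochrome P450 genes of female liver, were at 1.58 and 1.48 TPM in that library, against at least 1505.42 and 67.57 TPM in untreated WT liver.

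**Figure D2:**
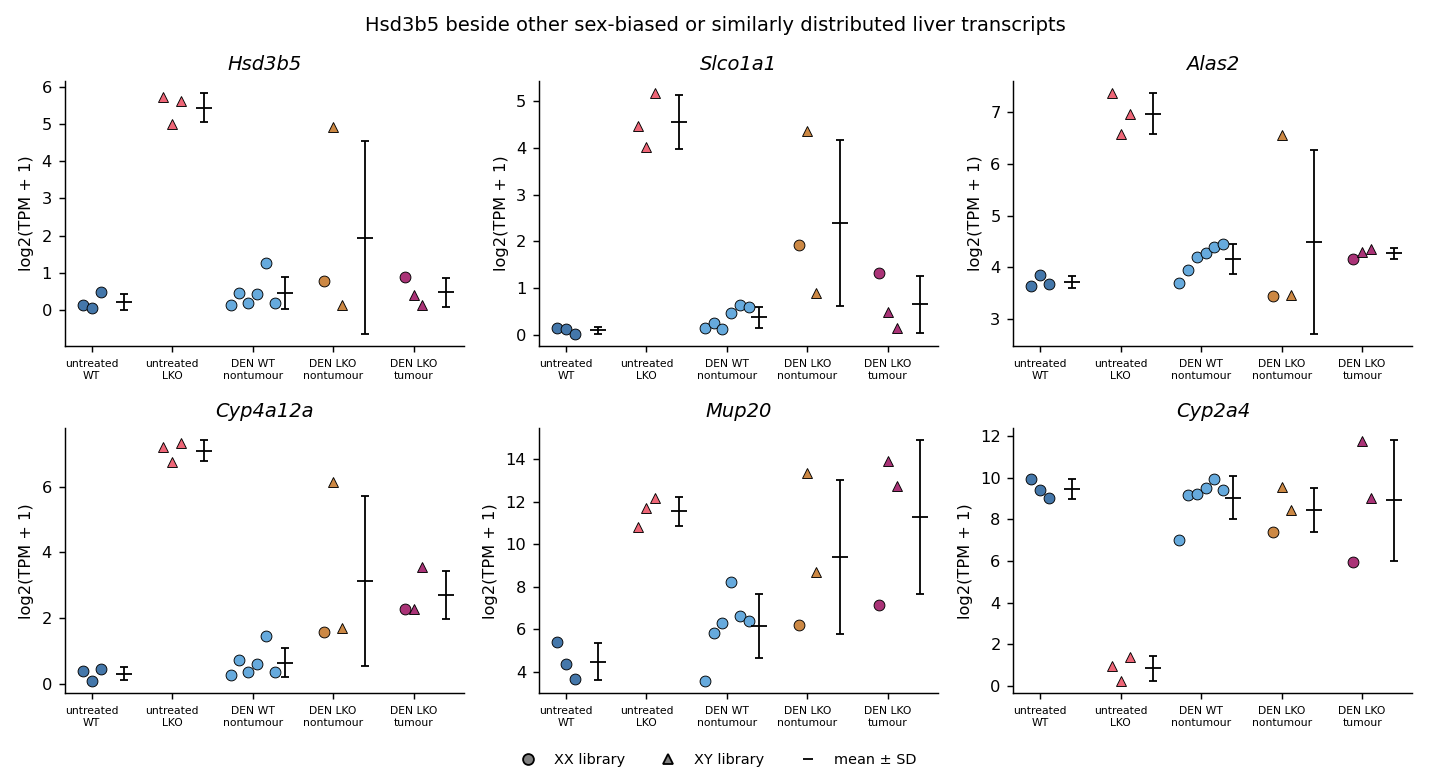
Hsd3b5 beside 5 other transcripts, as log2(TPM + 1) on the vertical axes, by group on the horizontal axes, with circles for XX and triangles for XY libraries and bars for the mean and SD of the log values. Slco1a1, Alas2 and Cyp4a12a share the 4 high libraries of Hsd3b5, while Mup20 is high in the XY tumours 2 and 3 (15461.77 and 6862.24 TPM), where Hsd3b5 is low. Cyp2a4 is 1 of only 2 of the 18 female-biased genes that reach the untreated WT range in DEN LKO nontumour 2.

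Hsd3b3, a form known from liver and kidney, was the most abundant member in 16 of the 18 libraries. It held 112.82, 40.40 and 41.14 TPM in untreated WT liver and 44.82, 21.41 and 98.65 TPM in untreated LKO liver. DEN WT livers ran from 13.89 to 123.76 TPM with a median of 75.57 TPM. DEN LKO nontumour livers held 21.00, 46.97 and 33.35 TPM, and tumours held 25.05, 40.79 and 70.55 TPM. The spread within a group was as wide as that between groups. The order of the means was DEN WT (71.92 ± 43.01 TPM), untreated WT (64.79 ± 41.60), untreated LKO (54.96 ± 39.61), DEN LKO tumour (45.46 ± 23.11) and DEN LKO nontumour (33.77 ± 12.99). All neighbours in it overlapped and differed by less than the larger SD.

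Over the 18 libraries Hsd3b3 moved with Hsd3b7, the enzyme that takes the same step in bile acid synthesis, whose gene lies on chromosome 7. The Pearson r was 0.93 and Spearman's rho 0.92, and r was 0.96 after group means were taken out. Their transcripts share no 50-base stretch. Hsd3b7 ranged more widely, from 0.69 TPM in DEN WT 1 to 185.62 TPM in DEN WT 6, which are also the libraries with the lowest and the highest Hsd3b3. Both genes were lower where the mitochondrially encoded share was higher, with r = -0.81 for Hsd3b3 and -0.86 for Hsd3b7 on the log2 share. The 5 genes closest to Hsd3b3 were Snap47 (r = 0.965), Eif4g1 (0.965), Pja1 (0.963), Nagpa (0.960) and Ogdh (0.958), of which Eif4g1 is a translation initiation factor and Ogdh an enzyme of the citric acid cycle. All these coefficients are over the same 18 libraries, whose TPM values share one total, and are given as a description. The part of RNA makeup in the Hsd3b3 values was not tested beyond the covariate given below. For Hsd3b5, r with the log2 mitochondrial share was 0.35, and -0.08 after group means were taken out.

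**Figure D3:**
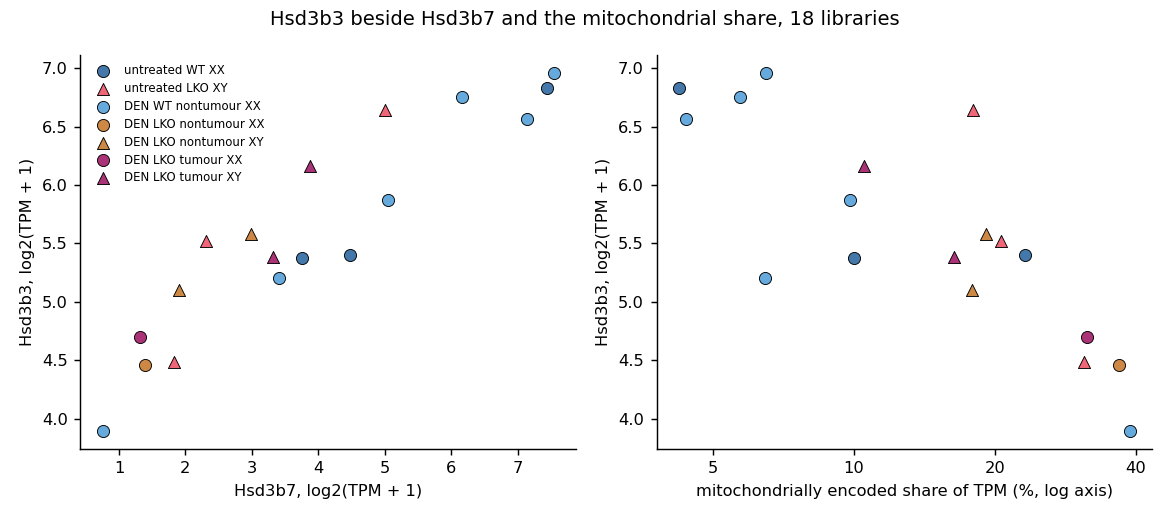
Hsd3b3 as log2(TPM + 1) on the vertical axes, against Hsd3b7 as log2(TPM + 1) at left and against the mitochondrially encoded share of TPM in percent on a log axis at right. Each point is 1 of 18 libraries, coloured by group, with circles for XX and triangles for XY. Hsd3b3 is higher where Hsd3b7 is higher (r = 0.93) and lower where the mitochondrial share is higher (r = -0.81).

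Hsd3b2, the other member known from liver and kidney, was expressed at a lower level. It held 8.89, 2.85 and 4.33 TPM in untreated WT liver and 10.82, 8.63 and 14.56 TPM in untreated LKO liver. DEN WT livers ran from 2.50 to 9.43 TPM with a median of 6.49 TPM. DEN LKO nontumour livers held 6.35, 15.08 and 7.36 TPM, and tumours held 4.99, 4.02 and 6.6 TPM. Its highest value was in DEN LKO nontumour 2, the library of treated mice with high Hsd3b5. The means ran from 11.34 ± 3.0 TPM in untreated LKO liver to 5.20 ± 1.30 TPM in tumours, and no neighbours in their order differed beyond the larger SD. At the ends of that order, the untreated LKO livers (8.63 TPM or more) lay above all tumours (6.6 TPM or less). This difference was not tested. Between Hsd3b2 and Hsd3b5 r was 0.69, falling to 0.49 after group means were taken out. Between Hsd3b2 and Hsd3b3 it was 0.48, and 0.83 after group means were taken out. The genes closest to Hsd3b2 were AL590864.1 (r = 0.840), Dpy19l3 (0.833), Nox4 (0.814), Ugt2b38 (0.777) and Zfp982 (0.773), all at 7.86 TPM or less.

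Hsd3b1, the adrenal and gonadal form, stayed below 2 TPM. Its group means ran from 0.24 ± 0.21 TPM in untreated WT liver (n = 3) to 0.68 ± 0.71 TPM in DEN LKO nontumour liver (n = 3), and all groups overlapped. Its highest value was 1.72 TPM in untreated LKO 3, where the other untreated LKO libraries were listed at 0. That library also had the highest sum of 6 kidney markers, 3.09 TPM against at most 0.30 TPM elsewhere. The next Hsd3b1 values were 1.48 TPM in DEN LKO nontumour 3, 1.33 in DEN WT 5 and 1.12 in tumour 3. Those libraries had the highest sums of the adrenal cortex markers, 10.54, 3.6 and 11.71 TPM, against at most 3.23 TPM elsewhere. The sums include Akr1b7, the only one of these markers that was not low. Cyp11a1 and Cyp11b1 were listed at 0 in DEN LKO nontumour 3 and tumour 3, and at 0.18 and 0.16 TPM in DEN WT 5. DEN LKO nontumour 2, with the sum of 3.23 TPM, held 0.14 TPM of Hsd3b1. The part of either tissue in the Hsd3b1 values was not tested. Hsd3b6, the adrenal and placental form, was listed at 0 in all 18 libraries.

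The makeup of the family followed from these levels. The summed TPM of the 5 members was 121.92, 43.79 and 46.00 in untreated WT liver and 107.17, 60.79 and 162.41 in untreated LKO liver. It ran from 16.60 to 133.82 TPM in DEN WT liver, from 28.48 to 91.56 in DEN LKO nontumour liver and from 30.94 to 78.37 in tumours, so all groups overlapped. Hsd3b5 made up 48.1%, 50.6% and 29.2% of the sum in untreated LKO liver and 32.1% in DEN LKO nontumour 2, and at most 2.7% in each other library. It was the leading member in untreated LKO 1 and 2 alone, and Hsd3b3 led elsewhere.

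The ratio of Hsd3b3 to Hsd3b2, looked at after their values had been seen and given with no test, was also unequal. It was 12.69, 14.18 and 9.5 in untreated WT liver and 4.14, 2.48 and 6.78 in untreated LKO liver, with no overlap. In DEN WT liver it ran from 5.17 to 15.44, above the 3.31, 3.11 and 4.53 of DEN LKO nontumour liver. The 2 lowest DEN WT ratios, 5.56 and 5.17, were in replicates 1 and 2, whose Ftcd was in the LKO range, and the other DEN WT ratios were 12.0 to 15.44. Untreated WT 3, whose Ftcd was also in the LKO range, had a ratio of 9.5, above all untreated LKO ratios. A relation of the ratio to Ftcd was not tested. Tumours had ratios of 5.02, 10.15 and 10.69, all above the 3 nontumour ratios, the lowest of them just below the range of DEN WT liver. Because most of the sequence that Hsd3b2 shares lies in Hsd3b3, the ratio depends on how such reads were split.

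**Figure D4:**
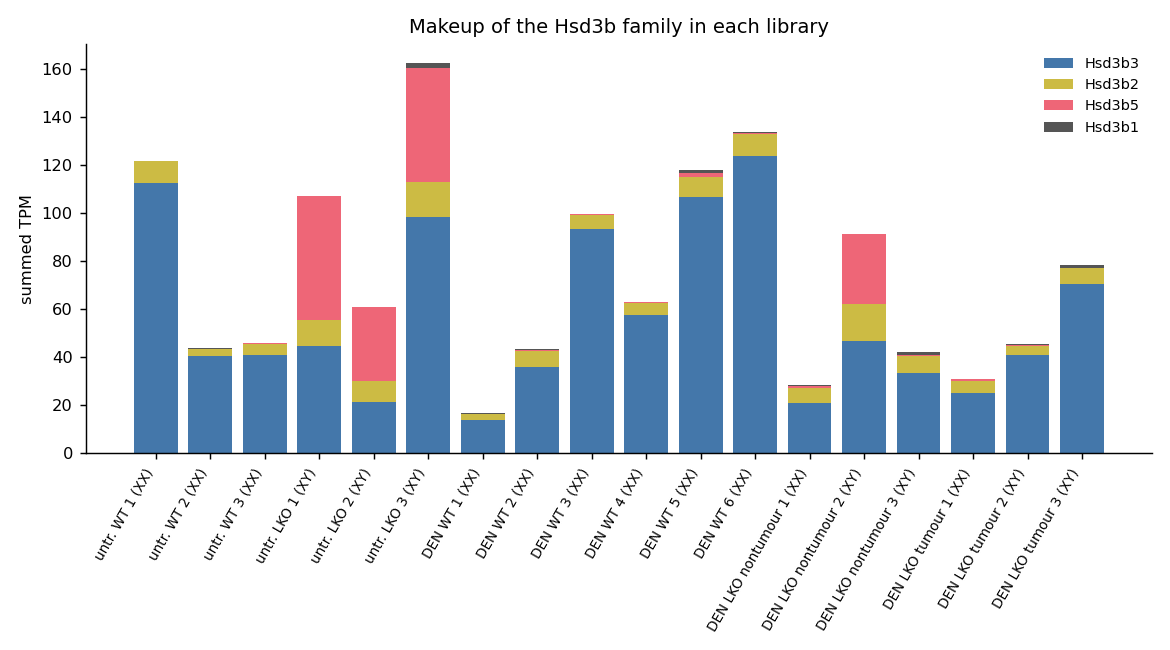
Summed TPM of the family on the vertical axis for each of 18 libraries on the horizontal axis, labelled by group, replicate and sex chromosomes, with bars split by member. Hsd3b5 takes up 29.2% to 50.6% of the bar in the 3 untreated LKO livers and 32.1% in DEN LKO nontumour 2, and Hsd3b3 makes up most of the bar in the other 14 libraries.

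Tests compared the groups of treated mice in a single limma fit on log2(TPM + 1) over all 13872 genes that reached 1 TPM in at least 3 libraries, with Benjamini-Hochberg adjustment. 4 of the 5 members passed that filter, Hsd3b6 being the exception. Hsd3b5 reached 1 TPM in 5 libraries, of which only DEN LKO nontumour 2 and DEN WT 5 were of treated mice. It thus entered the tests through the untreated LKO group that led to the family, and nothing is read from its test outcomes. Fold changes on this scale understate the change of low genes. The first test asked whether treated LKO liver differed from treated WT liver outside tumours. None of the 4 members passed, where 0.0577% of all genes did (8 genes, and 1811 at an unadjusted p under 0.05). Hsd3b5 had a log2 fold change of 1.49 ± 0.68 (SE, limma adjusted p = 0.374), which came from 1 library: without DEN LKO nontumour 2 it was 0.01. Hsd3b3 gave -0.83 ± 0.64 (limma adjusted p = 0.522), which was 0.40 with the log2 mitochondrial share as a covariate and -1.48 ± 0.81 with a term for sex chromosomes. Only the treated LKO groups held both XX and XY libraries, so that term rests on their replicates 1 against the others. Those replicates also had the highest mitochondrial share of their groups (36.88% and 31.44%), from which the term cannot be told apart. Hsd3b2 gave 0.52 ± 0.40 (limma adjusted p = 0.515) and Hsd3b1 0.19 ± 0.36 (limma adjusted p = 0.800). A p above the threshold does not show that levels were equal. Without DEN WT 1 and 2 and untreated WT 3, the libraries labelled WT with low Ftcd, the difference was 1.42 ± 0.79 for Hsd3b5 and -1.49 ± 0.55 for Hsd3b3 (limma adjusted p = 0.214 and 0.0833), and again no member passed.

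DEN LKO tumours were then set against DEN LKO nontumour liver. None of the 4 members passed, and neither did any other gene tested (0% called by limma, with 380 genes at an unadjusted p under 0.05). Hsd3b5 was lower in tumours by a log2 fold change of -1.47 ± 0.79 in the fit (limma adjusted p = 0.943), which again became 0.01 without DEN LKO nontumour 2. Hsd3b2 gave -0.70 ± 0.46 (limma adjusted p = 0.943), Hsd3b3 0.37 ± 0.74 (0.945) and Hsd3b1 -0.09 ± 0.41 (0.974).

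Between DEN LKO tumours and DEN WT liver, no member passed either, while 0.497% of all genes did (69 genes). Hsd3b5 differed by 0.02 ± 0.68 on the log2 scale (limma adjusted p = 0.996), Hsd3b2 by -0.18 ± 0.40 (0.934), Hsd3b3 by -0.46 ± 0.64 (0.878) and Hsd3b1 by 0.09 ± 0.36 (0.963). These comparisons share libraries with those above and are not independent of them. Every Hsd3b5 value in tumours and DEN WT liver was 1.42 TPM or less, and its SE was 0.31 with those groups fitted alone. The Hsd3b3 difference was 0.42 with the mitochondrial covariate and -1.11 with the sex chromosome term. Without the 3 low-Ftcd WT libraries Hsd3b5 differed by -0.06 and Hsd3b3 by -1.12 ± 0.55 (limma adjusted p = 0.277).

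The fitted differences that involve untreated liver are given without a test. Untreated LKO minus untreated WT was 5.20 ± 0.79 for Hsd3b5 on the log2 scale (SE), and its value with a pseudocount of 0.1 in place of 1 was 7.41. For Hsd3b2 it was 1.04 ± 0.46, for Hsd3b3 -0.32 ± 0.74 and for Hsd3b1 0.18 ± 0.41, where the median of all genes was -0.33. Without untreated WT 3 and the other low-Ftcd WT libraries, it was 5.32 for Hsd3b5 and -0.55 for Hsd3b3. Hsd3b5 was the 1 member of the 4 in the fit whose untreated libraries did not overlap, where 2.45% of all genes were higher in LKO in that way, and nothing is read from this count. The Hsd3b3 difference turned to 0.69 with the mitochondrial share as a covariate, to 0.18 with median-ratio scaling and to 0.19 with quantile normalization. It was -1.30 with a sex chromosome term, which is set by the treated LKO groups and by no untreated library. The Hsd3b2 difference ran over all alternatives from 0.69 with that term to 1.53 with the mitochondrial covariate. DEN WT minus untreated WT was 0.22 ± 0.68 for Hsd3b5, 0.24 ± 0.40 for Hsd3b2 and 0.01 ± 0.64 for Hsd3b3, and none of the members had libraries that did not overlap (0.67% of all genes did). DEN LKO nontumour minus untreated LKO was -3.48 ± 0.79 for Hsd3b5, whose libraries did not overlap (12.3% of all genes did not, 2.46% being lower), although DEN LKO nontumour 2 at 29.37 TPM lay just under the lowest untreated value of 30.75 TPM. Without that library the difference was -4.97. Hsd3b3 gave -0.50 ± 0.74 and Hsd3b2 -0.28 ± 0.46 in the same comparison, with overlap.

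**Figure D5:**
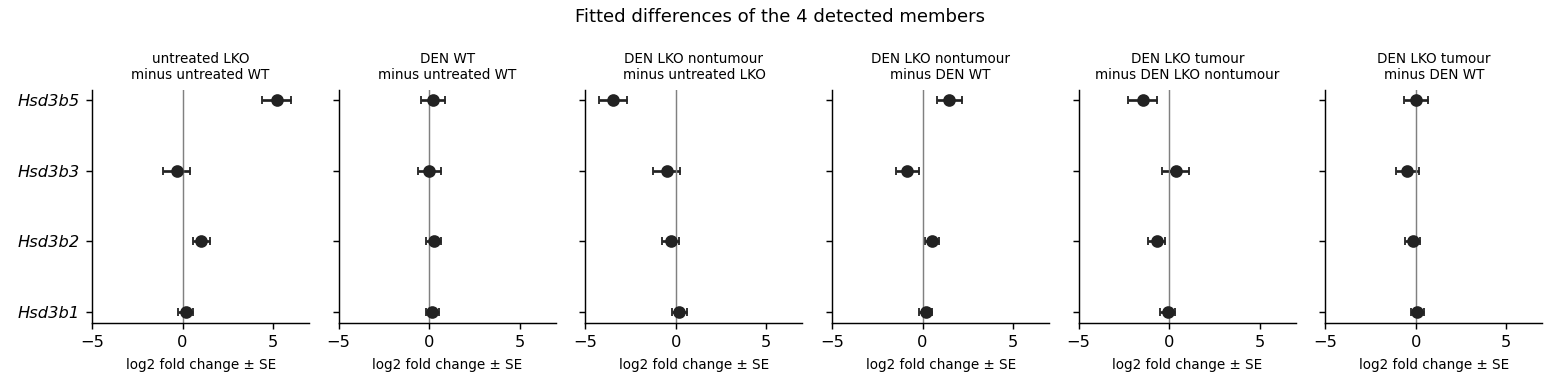
Fitted log2 fold changes with standard errors on the horizontal axes for the 4 detected members on the vertical axis, in 3 comparisons with untreated libraries and 3 among treated ones. Hsd3b5 lies at 5.20 in untreated LKO minus untreated WT and at -3.48 in DEN LKO nontumour minus untreated LKO, and no member passed in the 3 tested comparisons at right.

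Around the family, 42 other genes of steroid synthesis, steroid reduction, hydroxysteroid conversion and steroid reception were listed, of which 38 were found in the table and 28 passed the filter. None passed the limma test in any of the 3 comparisons among treated groups. Their median log2 fold change was -0.64 in DEN LKO nontumour minus DEN WT (all genes -0.19), 0.22 in tumour minus nontumour (all genes 0.23) and -0.63 in tumour minus DEN WT (all genes 0.04). In the untreated comparison 2 of the 28 were higher in LKO without overlap (2.45% of all genes) and 6 were lower (8.97% of all genes). That comparison sets XY against XX libraries as well as LKO against WT, and nothing is read from these counts. Cyp7b1, an oxysterol hydroxylase and male-biased like Hsd3b5, averaged 49.53 TPM in LKO against 14.24 TPM in WT. Cyp17a1, which makes the substrates of Hsd3b enzymes in steroid-producing glands, was lower, at 1.31, 1.34 and 7.63 TPM in LKO against 183.95, 104.50 and 136.57 TPM in WT. In DEN LKO nontumour liver Cyp17a1 was at 26.17, 27.78 and 18.18 TPM, and the library with high Hsd3b5 was not the lowest of them. Hsd11b1, which reactivates glucocorticoids, averaged 213.51 TPM in LKO against 416.79 TPM in WT, and Akr1d1, a steroid reductase of bile acid synthesis, 30.39 against 57.69 TPM.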

How the data were processed

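RNA from 18 mouse livers or tumours was extracted with TRIzol and made into TruSeq libraries, per the labels' protocols. The authors deposited gene-level TPM values, and fastp, HISAT, RSEM and the mm10 build are named in the submitters' processing notes, with versions, settings and strand not given in the sources used here. TPM keeps no read counts, so the depth per library is unknown and no counting interval is given. TPM values of near-identical genes depend on how the authors' counting split shared reads.

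Samples were grouped by their labels. The family and the gene lists were chosen with earlier results of these data known. The 13872 of 58126 genes that reached 1 TPM in 3 or more libraries were fitted as log2(TPM + 1) with limma 3.58.1 in R 4.3.3 (5 group means, trend, 2-sided, Benjamini-Hochberg, threshold 0.05), and the fit was tested on simulated data. The genes named are the 5 members, the other 3-beta-HSD genes, the listed steroid genes at 5 TPM or more whose untreated LKO and WT libraries did not overlap, and the 5 genes most like each of Hsd3b2, Hsd3b3 and Hsd3b5 by Pearson r. Zfp697 was named for its position. The Mup20, Cyp4a12a, Cyp2a4, Cyp3a41a and Cyp2b13 examples were chosen after their values were seen. Alternatives were pseudocount, filter, scaling, groups in the fit, a replicate block, left-out libraries, the mitochondrial share, and a sex chromosome term. The block was fitted to the compared groups alone and to the replicate numbers they share. Only the treated LKO groups held both XX and XY libraries, so they alone set the sex chromosome term. Windows around start sites came from RefSeq (GRCm38.p6), and transcripts and gene positions from GENCODE.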

Additional observations from a re-analysis of the deposited data

Results flagged for a closer look

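Among 6 DEN WT livers, replicate 5 held 1.42 TPM of Hsd3b5 and lay above the other libraries of its group, which reached at most 0.38 TPM. On the log2(TPM + 1) scale, its gap to the nearest library was 0.721 of the range of the group, past the limit of 0.625 for 6 samples. Chance meets that limit in about 1 of 20 groups, and 6 measures were checked here, each at both ends, so that 1 such value among them is likelier than that by chance. The level was still below the 29.37 TPM of DEN LKO nontumour 2.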

How the results depend on the processing

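No member passed in any of the 3 tested comparisons under any of the 51 alternatives run, and none of the steroid list passed under its 4. Adjusted p came closest for Hsd3b3 in DEN LKO nontumour against DEN WT (0.0833 at the lowest). In the 3 tested comparisons the log2 fold changes changed sign as follows, and the cause was not tested. DEN LKO nontumour minus DEN WT: Hsd3b1 was -0.15 with a term for XX or XY and ran from -0.13 to 0.43 with 1 library left out, and Hsd3b3 was 0.40 with the mitochondrial share as a covariate. Tumour minus nontumour: with 1 library left out, Hsd3b1 ran from -0.35 to 0.23 and Hsd3b5 from -2.37 to 0.01. Tumour minus DEN WT: Hsd3b1 was -0.03 with quantile normalization, -0.24 with the XX or XY term and -0.16 to 0.35 with 1 library left out. Hsd3b2 and Hsd3b3 were 0.24 and 0.42 with the mitochondrial covariate. Hsd3b5 was -0.36 with the XX or XY term, -0.06 without the low-Ftcd WT libraries and -0.19 to 0.19 with 1 library left out. With the replicate block, which also left out DEN WT 4 to 6, Hsd3b2 was 0.07 and Hsd3b3 0.20 in that comparison. Same-numbered libraries were not counted as pairs, since the labels do not say that they share an animal. Only tumour against nontumour liver could hold such pairs, and whether it does was not tested. There, deviations of same-numbered libraries correlated at 0.35, 0.3 and -0.03, and 4 of 6 libraries correlated best with their own number. The sex chromosomes agreed for each number. In the comparisons with DEN WT, correlations ran from -0.24 to 0.61, and 1 and 3 of 6 libraries correlated best with their own number. The fit with the block left 0 genes passing in each comparison, from 8, 0 and 69. It also held the compared groups alone, which without a block gave 0, 0 and 3 genes, so the loss is not the block's alone.

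In the described comparisons Hsd3b3 ran over all alternatives from -1.30 to 0.69 in untreated LKO minus WT. In DEN WT minus untreated WT it ran from -0.65 to 0.49, the lowest with the replicate block, which left out DEN WT 4 to 6. In DEN LKO nontumour minus untreated LKO it ran from -1.03 to 0.05. Hsd3b1 ran from -0.32 to 0.44 in the first and from -0.13 to 1.15 in the last, and Hsd3b2 from -0.07 to 0.61 in DEN WT minus untreated WT. The described Hsd3b5 differences kept their sign but moved with a pseudocount of 0.1, to 7.41 in untreated LKO minus untreated WT and to -4.63 in DEN LKO nontumour minus untreated LKO, and the latter ran from -4.97 to -2.59 with 1 library left out. Counts over all genes ran from 0 to 1159 (8 as reported; 1159 without the low-Ftcd WT libraries, 202 without DEN WT 1 and 0 without DEN WT 6), from 0 to 21 (0 as reported; 21 without tumour 1) and from 0 to 485 (69 as reported; 485 without tumour 1, and 52.2% of the 69 higher against 31.8% of 66 with a pseudocount of 0.1 and 77.0% of 161 with the mitochondrial covariate). Median-ratio scaling moved the median of all genes from -0.33 to 0 in the untreated comparison, from -0.19 to 0.02 in DEN LKO nontumour minus DEN WT and from 0.23 to 0.02 in tumour minus nontumour. Without counts, the depth that limits low members such as Hsd3b1 and Hsd3b6 is unknown.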
